A study of Mus musculus with 8 samples.

Results

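The cells described here are regulatory T cells (Tregs) of the mouse liver, 57 of 48465 kept cells from 8 mice. A kept cell had 200 to 2500 detected genes and at most 30% of its unique molecular identifiers (UMIs, each a counted RNA molecule) from mitochondrial genes. Tregs were chosen by measured UMIs: a kept cell was called a Treg if it had at least 1 UMI of Foxp3, at least 1 UMI of Cd3e, Cd3d or Cd3g, and at least 1 UMI of Ctla4, Ikzf2, Tnfrsf4 or Izumo1r. Cells with a UMI of Cd8a, Mki67, Top2a, Kdr, Cd79a or Clec4f were left out, so that CD8 T cells, dividing cells, endothelial cells, B cells and Kupffer cells would not enter. The cells used for comparison were 2669 other Cd4-positive T cells, which carried a Cd4 UMI and no Foxp3 UMI under the same limits. All T cells within these limits numbered 18849. The tested mice were 4 female C57BL/6J mice that received 1.2 mg of BG (β-glucan, odetiglucan) intravenously, with livers taken on day 2 (replicates 5 to 8). The Control mice were 4 untreated female C57BL/6J mice (replicates 1 to 4). All were 9 weeks old, and 1 library was made per mouse from CD45-positive liver cells, to which cells of the CD45-negative fraction from a density gradient were added. The BG libraries gave 7, 6, 4 and 5 Tregs and the Control libraries 11, 7, 12 and 5 Tregs, in the order of their replicates.

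Tregs are CD4 T cells that restrain other immune cells, and the transcription factor Foxp3 maintains their program. They bind interleukin-2 with high affinity, display the inhibitory receptor CTLA-4, and exist as resting cells that recirculate through lymphoid organs and as effector cells that settle in tissues. In the liver they share the sinusoids with many NKT and CD8 T cells, and they are outnumbered by them.

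Library totals were 44184117 to 60654583 UMIs in BG mice and 39612380 to 46211839 UMIs in Control mice, of which 4330 to 5780 cells (BG) and 6222 to 7790 cells (Control) were kept. BG replicate 5 stood apart, with 27873 barcodes, 66.6% of its UMIs from mitochondrial genes and a median of 34 genes per barcode. The 57 Tregs held 169530 UMIs, 70205 in BG and 99325 in Control mice. Per mouse this was 12385 to 34457 UMIs, against 738780 to 1551905 UMIs in the other Cd4-positive T cells. A Treg had a median of 2825.5 UMIs in BG mice and 2404 UMIs in Control mice. The other Cd4-positive T cells had medians of 3365.5 UMIs (BG) and 2904 UMIs (Control). No Treg barcode occurred among the Tregs of more than 1 library.

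Foxp3 was rare in these libraries. A Foxp3 UMI was found in 108 kept cells, 54 of BG and 54 of Control mice, and 106 of them also had a Cd3 UMI. In 7409 B cells (Cd79a and Cd79b present, no Cd3 UMI) none had a Foxp3 UMI, which allows a share of up to 0.0405% at their median depth of 1831 UMIs. The bars against other cell types removed 13 cells of BG and 17 of Control mice, mostly through Kdr (16 cells) and Cd79a (10 cells). The bar against Mki67 and Top2a removed 14 cells of BG and 2 of Control mice. Just outside the rule lay 3 cells, all from BG mice, that lacked all 4 further markers. Just inside lay 36 of the 57 Tregs with a single Foxp3 UMI and 20 Tregs with a single further marker, whereas 3 Tregs carried all 4. In addition, 46 T cells had at least 3 of the 4 further markers without a Foxp3 UMI and were not counted.

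The genes of the rule chose the cells, so their levels are a description. Ikzf2, which encodes the zinc finger factor Helios, was the most frequent further marker. It was found in 48 of 57 Tregs (84.2%) at 10.9 UMIs per 10000, against 17.3% of the other Cd4-positive T cells at 0.738 per 10000. Ctla4 was found in 22 Tregs at 2.71 per 10000, against 0.144 per 10000 in the other cells. Tnfrsf4, the costimulatory receptor OX40, was found in 21 Tregs at 2.95 per 10000, against 0.0792 per 10000. Izumo1r, the folate receptor 4 of Tregs, was found in 20 Tregs at 2.18 per 10000, against 0.592 per 10000. Foxp3 itself ran at 3.62, 4.47, 4.92 and 5.09 UMIs per 10000 in the BG mice and at 6.09, 4.53, 5.92 and 4.84 in the Control mice. Its levels in the 2 groups overlapped. A Cd4 UMI was present in 18 of the 57 Tregs.

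Other known Treg genes, outside the rule, were then checked against the label. Il2ra, the high-affinity chain of the interleukin-2 receptor, had a UMI in 26.3% of Tregs and in 20.4% of the other Cd4-positive T cells, so at this depth it did not set the Tregs apart. Markers of tissue-settled Tregs were seen in a minority of cells. Klrg1, an inhibitory lectin-like receptor, was in 15.8% of Tregs against 0.862% of the other cells. Itgae, the CD103 integrin chain, was in 14% against 0.412%, and Il1rl1, the receptor of interleukin-33, in 12.3% against 0.262%. The interleukin-10 gene Il10 had a UMI in 1 Treg, Areg in 2, Ebi3 in 4, Lag3 in 1, Tigit in 2 and Pdcd1 in 2, and Ccr8 had none.

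The share of Tregs among liver T cells did not separate the groups. The share was 0.387%, 0.272%, 0.212% and 0.222% in the BG mice, against 0.395%, 0.267%, 0.421% and 0.204% in the Control mice. The groups overlapped across most of their range. The mean was 0.274% ± 0.080 in BG and 0.322% ± 0.103 in Control mice (SD, n = 4 each; two-sided exact permutation test over mice, p = 0.514). With dividing cells kept the direction turned, with means of 0.410% in BG and 0.326% in Control mice. Exact binomial 95% intervals on the pooled shares, which cover counting error only, were 0.169% to 0.409% in BG and 0.228% to 0.454% in Control mice.

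**Figure D1:**
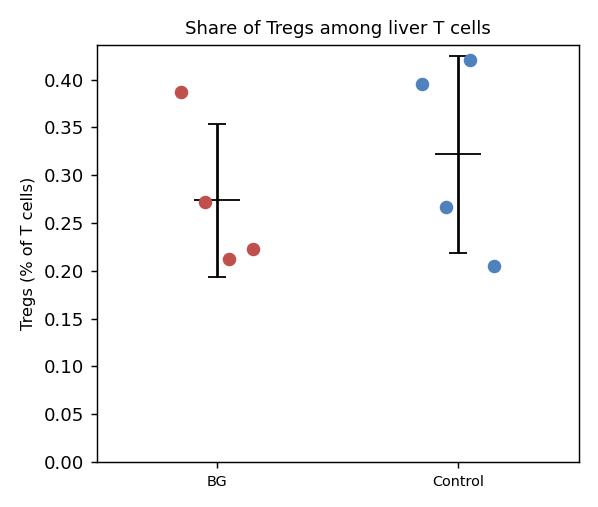
Tregs as a percentage of liver T cells in each BG and Control mouse. Points are mice, lines are means ± SD (n = 4). The BG mice lie between 0.212% and 0.387% and the Control mice between 0.204% and 0.421%, so the groups overlap.

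Dividing cells were looked at among all cells that otherwise met the Treg rule. Mki67, which encodes Ki-67, and Top2a, a topoisomerase of dividing cells, are genes of the rule, and they were read here after the counts of removed cells had been seen, so the values are a description with no test. A UMI of either was found in 3 of 10, 4 of 10, 3 of 7 and 4 of 9 cells of the BG mice, or 30%, 40%, 42.9% and 44.4%. In the Control mice it was found in 2 of 13, 0 of 7, 0 of 12 and 0 of 5 cells, or 15.4%, 0%, 0% and 0%. Every BG mouse was above every Control mouse. The mean share was 39.3% ± 6.48 in BG and 3.85% ± 7.69 in Control mice (SD, n = 4 each). Pooled over mice, 14 of 36 cells (38.9%) were positive in BG mice and 2 of 37 cells (5.41%) in Control mice. Exact binomial 95% intervals on these pooled shares were 23.1% to 56.5% in BG and 0.661% to 18.2% in Control mice. They take cells as independent, cover counting error only and are no test between the groups. With every cell thinned to 1500 UMIs the means were 31.7% ± 6.49 in BG and 2.08% ± 4.17 in Control mice.

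In the other Cd4-positive T cells the gap was smaller. With dividing cells kept, the share with a Mki67 or Top2a UMI was 8.46%, 5.65%, 15.9% and 16.0% in the BG mice, against 8.21%, 3.57%, 6.71% and 4.43% in the Control mice. The groups overlapped, with means of 11.5% ± 5.26 in BG and 5.73% ± 2.12 in Control mice (SD, n = 4 each). When cells of up to 5000 detected genes were admitted, they did not overlap, with 16.4% ± 6.19 (10.95% to 22.3%) in BG and 7.42% ± 1.83 (5.20% to 9.54%) in Control mice. Under that limit the Foxp3-positive cells were at 46.9% ± 13.5 in BG and 3.85% ± 7.69 in Control mice. The Foxp3-positive share minus the share of the other cells of the same mouse was 27.8 ± 5.26 percentage points in BG and -1.88 ± 6.18 in Control mice, with 2500 genes as the upper limit. Among B cells the share was 3.52% in BG mice at a median depth of 1875.5 UMIs and 2.45% in Control mice at 1805 UMIs. The 16 dividing Foxp3-positive cells had a median of 4647.5 UMIs, more than the 2748 of all 57 Tregs. Of these, 13 had Mki67, 11 had Top2a and 8 had both, and 12 had at least 2 of the 4 further Treg markers. Stmn1 was in 10 and Pcna, the sliding clamp of DNA replication, in 10. In the 2 Control cells Stmn1 was in 0 and Pcna in 1. UMIs of Stmn1 and Pcna also occurred among the 57 Tregs, which had no Mki67 or Top2a UMI. No doublet caller was run on them, and the part of doublets in this result was not tested.

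**Figure D2:**
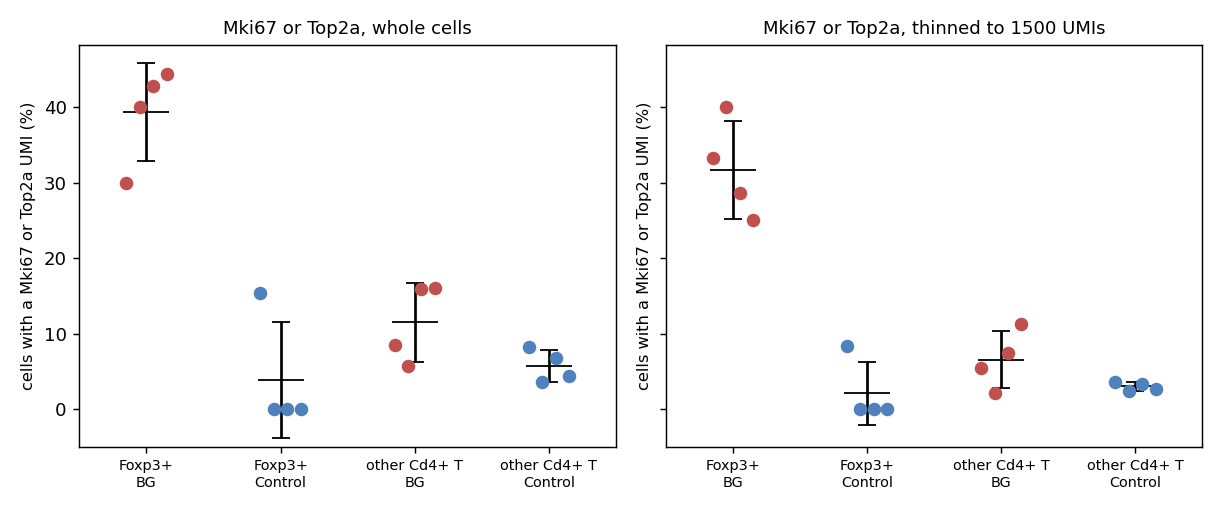
Percentage of cells with a Mki67 or Top2a UMI among Foxp3-positive cells that otherwise met the Treg rule and among other Cd4-positive T cells, in BG and Control mice. Left, whole cells. Right, cells thinned to 1500 UMIs. Points are mice, lines are means ± SD (n = 4). Foxp3-positive cells of the 4 BG mice lie at 30% to 44.4% on the left, and those of 3 of the 4 Control mice lie at 0%.

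All genes were then compared between Tregs and the other Cd4-positive T cells of the same mouse, with UMIs summed per mouse and 4360 genes tested. edgeR's quasi-likelihood test with TMM scaling called 49 genes higher (1.12% of those tested) and 224 lower (5.14%) at a Benjamini-Hochberg adjusted p under 0.05 and an absolute log2 fold change over 0.5. The median log2 fold change of all genes was -0.31, and the TMM factors ran from 0.985 to 1.34 in Tregs and from 0.825 to 0.918 in the other cells. With DESeq2's size factors the test called 69 higher and 75 lower (median -0.05), and with library totals 82 higher and 53 lower (median 0.04). The share of higher calls was thus 17.9%, 47.9% or 60.7%. Of the 87 tested ribosomal protein genes, 57 were called lower with TMM and 1 under all 3 scalings. After this was seen, "rose" and "fell" were kept in the following for genes called under all 3 scalings, which were 49 higher (1.12%) and 53 lower (1.22%). Of these, 24 were higher and 33 lower in Tregs in every one of the 8 mice. Fold changes and adjusted p below are those of edgeR with TMM.

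Among the named genes that rose, Capg (3.33), Nrp1 (2.80), Vim (2.78) and S100a4 (2.74) had the largest log2 fold changes. Vim, the intermediate filament vimentin, stood at 8.59, 15.9, 12.0 and 8.72 UMIs per 10000 in Tregs of the BG mice and at 4.64, 6.79, 6.25 and 9.69 in those of the Control mice. The other Cd4-positive T cells of the same mice had at most 1.35 per 10000, so the populations did not overlap. The log2 fold change was 2.78 ± 0.22 (SE, adjusted p = 6.02e-33). S100a4, a small calcium-binding protein of motile cells, was uneven, with 14.9, 42.3, 2.11 and 23.99 per 10000 in Tregs of the BG mice and 14.5, 7.70, 5.59 and 4.84 in those of the Control mice. It was nonetheless above the other cells in every mouse, where the mean was 1.44 (log2 fold change 2.74 ± 0.21, adjusted p = 1.49e-35). Its relatives S100a6 (18.7 per 10000 in Tregs and 3.12 in the other cells, log2 fold change 2.11 ± 0.18), S100a10 (27.2 in Tregs and 7.25 in the other cells, 1.41 ± 0.16) and S100a11 (1.06 ± 0.20) rose as well. Crip1, a LIM domain protein, averaged 19.4 ± 8.30 per 10000 in Tregs and 4.72 ± 0.73 in the other cells (SD, n = 8 mice each; log2 fold change 1.60 ± 0.17, adjusted p = 3.63e-18). Lgals1, which encodes the immunoregulatory lectin galectin-1, averaged 12.4 ± 5.24 in Tregs and 2.95 ± 0.59 in the other cells (log2 fold change 1.65 ± 0.19). S100a4, S100a6, S100a10 and S100a11 lie within 2.961 Mb of chromosome 3 (GRCm38), with S100a4 at chr3:90603771-90606045 and S100a6 at chr3:90612882-90624181. S100a4 overlaps another annotated gene, as do Foxp3, Ikzf2, Ctla4, Icos, Entpd1, Bcl2, Satb1 and Klrb1c among the genes named, and reads shared with such a neighbour were not separated here.

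Of the 19 core genes listed for Tregs, which held none of the rule's markers, 13 could be tested. Of these 7 rose (Capg, Nrp1, Arl5a, Cd5, Nt5e, Tnfrsf18 and Cd2), 1 fell (Il2rb) and 5 did neither, with a median log2 fold change of 0.88 against -0.31 for all genes. Nrp1, a semaphorin receptor typical of thymus-derived Tregs, was at 0.452, 2.49, 0.703 and 5.82 per 10000 in the BG mice and at 1.16, 2.26, 2.30 and 4.04 in the Control mice. The other cells had 0.158 to 0.360, below the Tregs of every mouse (log2 fold change 2.80 ± 0.37, adjusted p = 7.55e-12). Capg, an actin-capping protein, was absent from the Tregs of BG replicate 7 and Control replicate 4 and reached 1.32 to 5.22 in the other 6 mice (log2 fold change 3.33 ± 0.33, adjusted p = 2.74e-20). Tnfrsf18, the costimulatory receptor GITR, averaged 3.08 ± 2.08 per 10000 in Tregs and 1.14 ± 0.17 in the other cells (log2 fold change 1.03 ± 0.29, adjusted p = 0.00734), and without BG replicate 6 its call was lost (0.77, adjusted p = 0.176). Cd5, a brake on T cell receptor signalling, averaged 3.40 ± 1.90 in Tregs and 0.930 ± 0.181 in the other cells (log2 fold change 1.47 ± 0.29). Nt5e, the CD73 enzyme that makes adenosine, passed narrowly (log2 fold change 1.45 ± 0.49, adjusted p = 0.0433) and kept its call in 2 of 8 fits that left out 1 mouse. Of 12 suppressive molecules 7 were tested and 3 rose, namely Nrp1, Nt5e and Lgals1. Il2rb, the beta chain shared by the interleukin-2 and interleukin-15 receptors, fell (log2 fold change -1.41 ± 0.21), but it stood at 0.15 (adjusted p = 0.805) when the other cells were limited to those without UMIs of 3 NKT genes (Cxcr6, Zbtb16 and Klrb1c).

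Of the 29 effector Treg genes 16 were tested, of which 4 rose (S100a4, S100a6, S100a11 and Lgals1), none fell and 12 did neither (median 0.31). Of the 18 costimulation and checkpoint genes 9 were tested. Slamf6, a homophilic receptor of lymphocytes (log2 fold change 1.73 ± 0.34), and Tnfrsf18 rose, whereas Cd226, an activating receptor, fell (-2.76 ± 0.38). Of 16 resting T cell genes 4 fell, among them Satb1, a chromatin organiser that Foxp3 is known to repress (-1.85 ± 0.28), and Bcl2, a survival protein (-1.94 ± 0.29). Against other cells without the NKT genes Satb1 was at -1.70 and Bcl2 at -1.16, and both still passed the edgeR test. In the interleukin-2 and STAT5 pathway 11 genes were tested and Pim1, a kinase that STAT5 induces, rose (1.22 ± 0.21), while Bcl2 and Il2rb fell. No gene of the TGF-beta pathway passed in either direction among 8 tested. Among homing genes the integrin chains Itga4 and Itgb7 rose, whereas the chemokine receptors Ccr9 and Cxcr6 fell. A Cxcr6 UMI was in 5 of 57 Tregs and in 57.8% of the other Cd4-positive T cells. Against other cells without NKT genes Itga4 was at 0.28 (adjusted p = 0.645).

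Most of the comparison cells had a UMI of Cxcr6, Zbtb16 or Klrb1c, here called NKT genes. The paper also assigns Cxcr6 to a population of CD4 T cells, and which of these cells were NKT cells was not tested. Of 249 to 436 other Cd4-positive T cells per mouse, 77 to 126 had no UMI of Cxcr6, Zbtb16 and Klrb1c. Of the 53 genes that fell, 12 belonged to the list of NKT and cytotoxic genes. None of its 19 tested genes rose, with a median log2 fold change of -2.56. Nkg7, a granule protein, was at 1.81, 1.99, 0 and 1.45 per 10000 in Tregs of the BG mice and at 2.32, 1.81, 0.329 and 1.61 in those of the Control mice. Every one of these was below the 5.77 to 7.42 of the other cells (log2 fold change -2.53 ± 0.27). Ifng, the interferon gamma gene, was found in 5 of 57 Tregs, at a mean of 0.302 per 10000 against 2.55 in the other cells (-3.46 ± 0.47). Ly6c2, a surface protein of effector lymphocytes, had 4 UMIs, all in 1 Treg of Control replicate 3 (-4.11 ± 0.47). Id2, an inhibitor of E proteins, was below the other cells in 7 of 8 mice and at 8.59 against 8.42 per 10000 in BG replicate 5 (-2.16 ± 0.23). Ccl5 was likewise high there, at 25.3 per 10000 against 0 to 18.1 in Tregs of the other 7 mice. In that library 1 Treg alone held 96 UMIs of the NKT and cytotoxic list, of 303 in all 57 Tregs.

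Among T helper regulators 3 of 10 tested genes fell, namely Zbtb16 (1 UMI in Tregs), Tbx21, the T-bet factor of type 1 helper cells, and Id2. Some genes had no UMI in any Treg. Tcrg-C1, a gamma chain constant region, was at least 4.33-fold lower and the cytokine gene Il4 at least 3.25-fold lower than in the other cells, taking 3 UMIs over all Tregs as the floor. Pcnt, a centrosome protein, was at least 2.13-fold lower by the same measure. Atp8b4, Exosc10 and Nip7 also had 0 UMIs and were called lower with TMM but not under all 3 scalings. Lmo4 had 1 UMI and Klrb1c, the NK1.1 receptor, had 3. Against the other cells without NKT genes, of which only 1494 genes could be tested, Nkg7 was at -0.99 and Id2 at -0.88 and both passed (adjusted p = 0.0357 and 0.0493 with edgeR), whereas Ccl5 was at -0.63 (adjusted p = 0.314). In the same comparison Vim (1.86), S100a4 (2.47), S100a6 (2.49), Lgals1 (1.81), Crip1 (1.52), Tnfrsf18 (2.06), Cd5 (1.22) and Samhd1 (1.53) were called higher. Capg, Nrp1, Trib1, Pou2f2 and Glrx were not among the genes tested in it. Icos, an inducible costimulator linked to effector Tregs, was called there (1.53, adjusted p = 0.000879), and against all other Cd4-positive T cells with size factors and library totals but not with TMM (0.76, adjusted p = 0.119).

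**Figure D3:**
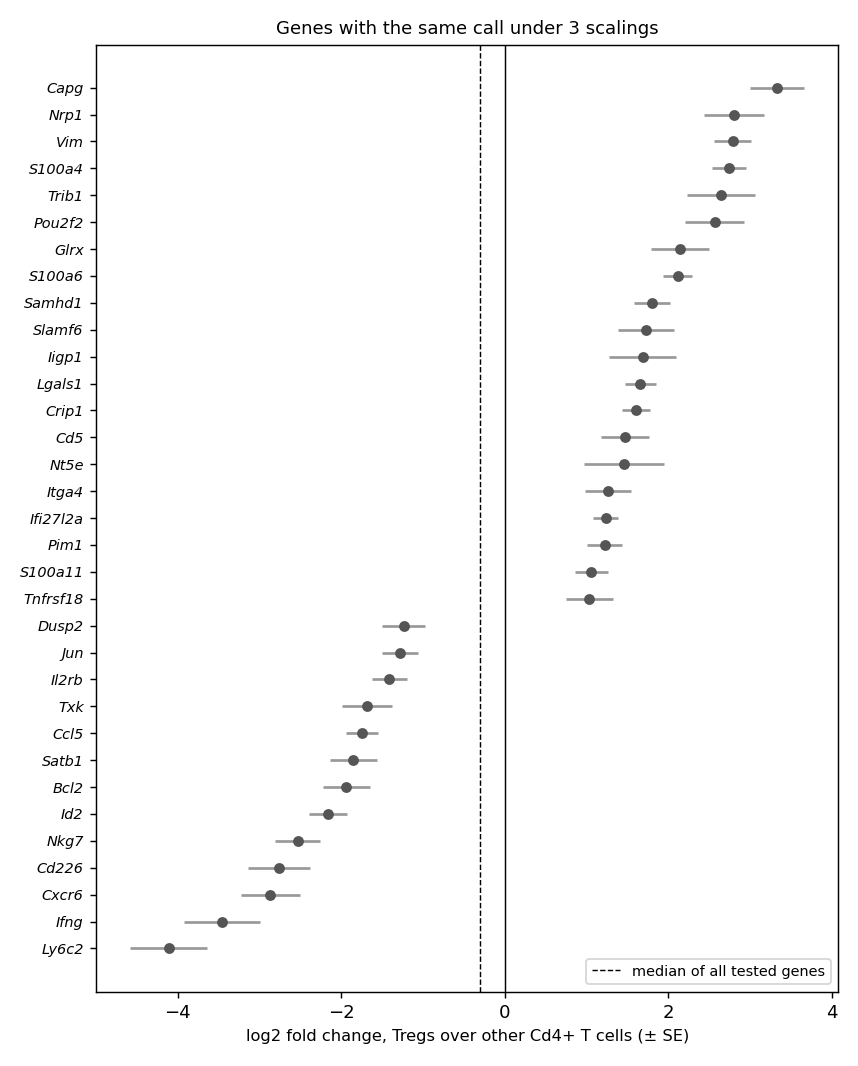
Log2 fold change of Tregs over other Cd4-positive T cells ± SE (edgeR, TMM scaling, 8 mice) for named genes with the same call under 3 scalings. The dashed line is the median of all 4360 tested genes (-0.31). Vim, S100a4, Capg and Nrp1 lie above 2.5, and Ifng and Ly6c2 below -3.

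Further named genes that rose were Samhd1, a nucleotide-cleaving enzyme that restricts viruses (log2 fold change 1.80 ± 0.22), Trib1 (2.64), a pseudokinase, Pou2f2 (2.57), the Oct-2 factor, and Glrx (2.14), a thiol oxidoreductase. Of 40 tested type I interferon genes 2 rose, Samhd1 and Ifi27l2a, and the median was -0.29, close to the -0.31 of all genes. Of 20 tested interferon gamma genes 1 rose, Iigp1 (1.68), through 17 of its 26 Treg UMIs in Control replicate 1, without which it was at 0.39 (adjusted p = 0.816). No gene of MHC class I presentation among 22, of the S phase among 8 or of the heat shock list among 11 passed under all 3 scalings, although 6 heat shock genes were called lower with TMM.

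The response to BG was then tested within Tregs, where the small cell number left 223 genes above the count filter. In Tregs 1 gene rose, Ifi27l2a (0.448% of those tested), and none fell (0%). Ifi27l2a encodes a small membrane protein of the interferon-alpha-inducible family and lies at chr12:103442167-103443680 (GRCm38, minus strand). It was at 42.5, 53.7, 49.2 and 53.1 UMIs per 10000 in Tregs of the BG mice and at 19.7, 12.2, 15.5 and 12.9 in those of the Control mice. The lowest BG mouse was above the highest Control mouse by more than the range of either group. The mean was 49.6 ± 5.15 in BG and 15.1 ± 3.40 in Control mice (SD, n = 4 each), and the edgeR log2 fold change was 1.71 ± 0.17 (adjusted p = 3.79e-06). An Ifi27l2a UMI was present in 22 of 22 Tregs of BG mice and in 25 of 35 Tregs of Control mice. The edgeR call was lost when each cell was thinned to 1500 UMIs and the rule applied to the thinned cells (log2 fold change 1.26, adjusted p = 0.0585). This left 0, 4, 2 and 6 Tregs in the BG mice and 7, 5, 8 and 2 in the Control mice, so BG replicate 5 did not enter.

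The same gene was called higher in BG mice outside Tregs. In the other Cd4-positive T cells it was at 21.3, 15.8, 23.96 and 14.8 per 10000 in the BG mice and at 3.85, 5.66, 3.70 and 3.77 in the Control mice (log2 fold change 2.21 ± 0.17). In B cells it averaged 17.1 ± 3.56 in BG and 3.81 ± 0.94 in Control mice. Ifi27l2a was thus higher in Tregs than in the other Cd4-positive T cells in 8 of 8 mice (log2 fold change 1.23, past the threshold under all 3 scalings). The difference between the 2 responses on the log2 scale was -0.57 ± 0.32 and did not pass the test (adjusted p = 1).

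**Figure D4:**
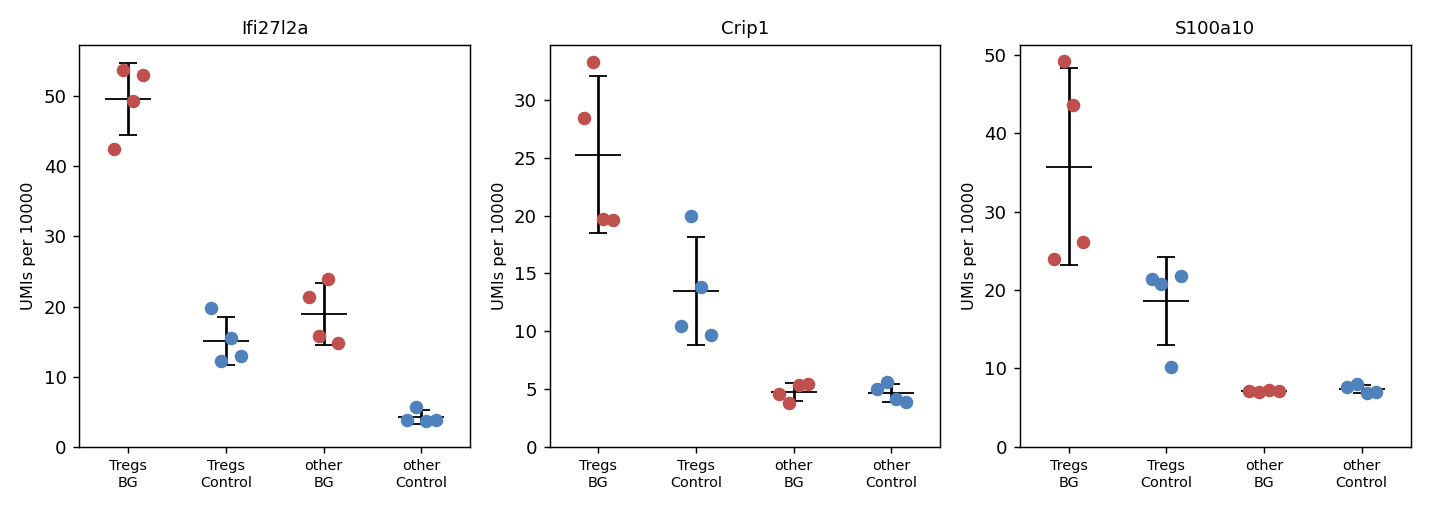
UMIs per 10000 of Ifi27l2a, Crip1 and S100a10 in Tregs and in other Cd4-positive T cells of BG and Control mice. Points are mice, lines are means ± SD (n = 4). Ifi27l2a separates BG from Control in both populations, whereas Crip1 and S100a10 are near 5 and 7 in the other cells of both groups.

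No other gene passed in Tregs, with 22 genes at an unadjusted p under 0.05 (11 higher, 11 lower), and DESeq2's test also called Ifi27l2a alone. In 12 of the 223 genes (5.38%) the groups of mice did not overlap. Those higher in BG mice were Ifi27l2a, S100a10, Lgals1 and Atp5e. Those lower were 5 ribosomal protein genes (Rpl12, Rps7, Rps23, Rpl21 and Rps4x), Tpt1, Fth1 and Pfdn5. S100a10 was at 23.96, 49.2, 43.6 and 26.2 per 10000 in BG mice and at 21.5, 20.8, 10.2 and 21.8 in Control mice (log2 fold change 1.00 ± 0.27, adjusted p = 0.135). Crip1 was at 28.5, 33.3, 19.7 and 19.6 in BG mice and at 10.4, 19.9, 13.8 and 9.69 in Control mice (0.97 ± 0.25, adjusted p = 0.133). The 2 lower BG mice were below the highest Control mouse in this gene. Lgals1 was at 18.1, 18.9, 15.5 and 13.1 in BG mice and at 11.3, 12.2, 4.61 and 5.65 in Control mice (0.98 ± 0.32, adjusted p = 0.311). S100a10 and Crip1 passed the edgeR test when the 52 Tregs with under 20 UMIs of any list of another cell type were used, a choice made after the data were seen (log2 fold change 0.97, adjusted p = 0.0179, and 1.17, adjusted p = 0.00707). With the dividing cells kept, edgeR with TMM called 8 genes higher and 2 lower. Those higher were Ifi27l2a, Crip1, S100a10, Lgals1, Vim, Actg1 and the chromatin genes Hmgb2 and H2afz, and those lower were Rpl12 and Malat1. The cells so added, 14 of BG and 2 of Control mice, were chosen by a Mki67 or Top2a UMI. A response to BG and the larger share of dividing cells in BG mice cannot be told apart in these calls.

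Most interferon genes were below the count filter in so few Tregs. Of the 57 type I interferon genes, 54 had a UMI in Tregs but 7 passed the count filter. Of these Ifi27l2a rose and 6 did not pass, with a median log2 fold change of 0.34 against 0.04 for all 223 genes. Summed over the list, Tregs had 140 ± 14.7 UMIs per 10000 in BG mice (range 120 to 153) and 83.5 ± 16.0 in Control mice (69.4 to 107). Without Ifi27l2a the sums were 90.6 ± 16.7 (70.3 to 111) in BG and 68.4 ± 12.9 (56.5 to 86.8) in Control mice, and the groups overlapped. The other Cd4-positive T cells had means of 79.6 (BG) and 53.9 (Control) by the same sum. In these deeper sums 7507 genes were tested, of which edgeR with TMM called 99 higher (1.32%) and 17 lower (0.226%) after BG, and 38 of the 50 tested type I interferon genes were among those higher.

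The response of Tregs minus that of the other Cd4-positive T cells was tested for 5496 genes, and no gene passed (0%). At an unadjusted p under 0.05 there were 208 genes, and DESeq2's test called none. The smallest adjusted p with edgeR was 0.193, for Iigp1. The counts of calls in the 2 populations are not a test of it.

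UMIs of marker genes of other cell types were found in the Treg gate, and their origin was not tested. For B cell markers the Treg sum was above that of the other Cd4-positive T cells in 4 of 8 mice. It was above in 3 for hepatocyte markers and in 1 for Kupffer cell and macrophage markers. At least 20 UMIs of a list of another cell type were found in 5 Tregs, 1 of BG and 4 of Control mice. B cell markers summed to 4.22 to 10.4 UMIs per 10000 in BG and 3.23 to 43.8 in Control mice, with 7 of 12 markers seen and 126 of their 226 UMIs in 1 Treg of Control replicate 3. That Treg had 0 UMIs of Cd79b and also held 49 UMIs of dendritic cell markers. Igkc, a B cell marker of the list, had 3 UMIs in all Tregs and fell (log2 fold change -4.67). Endothelial markers summed to 0.904 to 9.14 in BG and 3.48 to 20.2 in Control mice, with all 12 markers seen. In the other Cd4-positive T cells they summed to 2.36 to 2.76 in BG and 1.76 to 5.66 in Control mice. Tregs had the higher sum in 4 of 8 mice. All 4 tested endothelial markers had positive log2 fold changes in Tregs (median 0.77), and none was called. The bearing of such RNA on the level of any other single gene was not tested. Kupffer cell and macrophage markers were near 0, with 11 UMIs in 5 Tregs, and hepatocyte markers gave 37 UMIs in 25 Tregs. With the 5 Tregs left out the comparison with other Cd4-positive T cells called 47 genes higher, all 47 among the 49, and Ifi27l2a kept a log2 fold change of 1.59 between BG and Control mice.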

How the data were processed

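Single-cell 10x 3′ libraries of 8 mouse livers were analysed. The authors deposited UMI counts per gene and barcode, before normalization, made with Cell Ranger 6.1.2 (per the file headers) on mm10 with introns included. The members and gene lists were chosen with earlier results of these data known. UMIs were summed per mouse and population, filtered with filterByExpr, scaled by TMM and tested with edgeR 4.0.16 (quasi-likelihood; calls at an adjusted p under 0.05 and a log2 fold change beyond 0.5 in size; mouse as a block where Tregs and other cells were compared; R 4.3.3). DESeq2 1.42.0 was an alternative. The 10 largest calls in each direction with the most significant genes of each list were named, as were genes singled out after their values were seen. A minimum of 10 Tregs per library was planned, but 2 libraries met it, so all 8 entered. The Treg share was compared by exact permutation over mice (scipy 1.17.1). Doublets were not called. A measure of resting cells and some single genes are not reported here. UMIs per 10000 are relative to the summed UMIs of the population. The depth of 12385 to 34457 Treg UMIs per mouse limits precision. Scripts were tested on simulated data.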

Additional observations from a re-analysis of the deposited data

Results flagged for a closer look

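In 86 groups of 4 mice the distance of the highest or lowest mouse to the nearest other was compared with the whole range of the group. In 16 it exceeded Dixon's 95% critical value, which independent normal values pass in about 1 of 20 groups, or 4.3 of 86. These groups shared cells and genes and some held values of 0, so the 16 measure no excess over chance. Among the Tregs of BG mice, replicate 5 was far above the others for NKT and cytotoxic genes (59.7 UMIs per 10000, next mouse 9.45), CD8 T cell markers (28.9, next 2.91), NK cell markers (12.2, next 0.703) and survival and death genes (18.1, next 9.85). It was the only BG mouse with UMIs of Kupffer cell and macrophage markers (2.71), gamma delta T cell markers (0.904) and erythroid and platelet markers (0.452). With the other mice at 0 the gap fills the whole range in these lists however few the UMIs, and the gamma delta and erythroid values are 2 UMIs and 1 UMI. Its NKT and cytotoxic, CD8 T cell and NK cell values came mostly through 1 and the same Treg, with 96, 57 and 26 UMIs of these lists. The lists overlap, as Nkg7, Klrd1 and Ccl5 belong to both the NKT and cytotoxic and the CD8 T cell list. This library also had the most mitochondrial UMIs, whose part in these values was not tested. Replicate 8 was far above the others for costimulation and checkpoint genes (34.2, next 17.4) and the TGF-beta pathway (13.8, next 6.46), and replicate 7 for endothelial markers (9.14, next 2.18).

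Among the Tregs of Control mice, replicate 2 was far above the others for S phase genes (9.51 UMIs per 10000, next mouse 4.64), NKT and cytotoxic genes (25.4, next 11.3) and CD8 T cell markers (19.9, next 5.80). Replicate 3 was far above them for B cell markers (43.8, next 8.71) and dendritic cell markers (17.1, next 3.23). Both came mostly through 1 and the same cell, with 126 and 49 UMIs of these lists. Control replicate 1 held the only dividing Foxp3-positive cells of its group (2 cells, 15.4%, with the other mice at 0%).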

How the results depend on the processing

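No paired analysis was possible for BG against Control because the groups share no replicate number. Tregs and other cells came from the same mice, and without this replicate block 52 genes were called higher and 263 lower in Tregs, and none in the difference of responses.

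With dividing cells kept, the Treg share of T cells was 0.0833 percentage points higher in BG than in Control mice. Without the dividing cells, as reported, leaving out 1 mouse gave differences of -0.0872 to -0.0150. The difference in the share of dividing Foxp3-positive cells, BG minus Control, was 43.1 points with up to 5000 genes per cell and 33.8 to 39.3 points with 1 mouse left out.

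For Tregs against other Cd4-positive T cells the count of higher genes was 82 with library totals, 15 after thinning, 13 with only Tregs carrying a Cd4 UMI and 8 with only the 2 libraries of 10 or more Tregs. That of lower genes was 75 with DESeq2's size factors, 45 with DESeq2's test, 53 with library totals and 724 without a count filter. It was 71 against other cells without NKT genes, 8 with the 2 libraries, and 343 without the Tregs rich in other cell markers. Leaving out 1 mouse gave 37 to 53 higher and 185 to 267 lower. Il2rb turned to 0.148 without NKT genes.

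For BG against Control in Tregs the higher count was 8 and the lower 2 with dividing cells kept, of which 14 were from BG and 2 from Control mice. It was 3 higher without the Tregs rich in other cell markers and 1 lower (Cd74) without a filter. After thinning it was 0 higher, and BG replicate 5, with no Treg left, entered no fit of thinned Tregs. With 1 mouse left out it was 1 to 3 higher (above 1 without BG replicate 7 or 8 or Control replicate 2) and 0 to 1 lower. In other Cd4-positive T cells the lower count was 10 with DESeq2's test, 60 without a filter, 30 with dividing cells kept and 5 after thinning, with 34 higher then. With 1 mouse left out these ran from 44 to 114 higher (fewest without BG replicate 7 and Control replicates 1 and 3) and 2 to 22 lower (fewest without BG replicates 6 and 7 and Control replicates 3 and 4). The difference of responses had 5 higher and 1 lower with up to 5000 genes per cell, 9 and 1 with dividing cells kept, 1 higher after thinning, and 0 higher and 0 to 1 lower with 1 mouse left out. The causes were not tested.

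Of the called genes named for Tregs against other cells, 554 values under the other alternatives kept direction and call, 102 lost the call and 1 turned. With 4 to 12 Tregs per mouse only 223 genes passed the count filter for BG in Tregs, so most genes were not tested under it.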
